A study of Mus musculus with 6 samples.

Results

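The conjugating enzymes of phase II metabolism were taken by the start of the gene symbol, with pseudogenes left out. Symbols of glutathione S-transferases (GST) began with Gsta, Gstm, Gstp, Gstt, Gsto, Gstk, Gstz or Mgst. Those of UDP-glucuronosyltransferases (UGT) began with Ugt1a, Ugt2a, Ugt2b or Ugt3a, and those of sulphotransferases (SULT) with Sult. The rule found 67 of the 55487 genes listed: 25 GST, 21 UGT and 21 SULT genes. They were measured by RNA-seq in intestinal epithelial cells (IECs) isolated from the colon of C57BL/6J mice, 2 months of age, all of which drank 2% dextran sodium sulphate (DSS), an agent that damages the lining of the colon. The 3 Nsd2 f/f libraries came from mice whose Nsd2 gene, which encodes a histone methyltransferase, is flanked by loxP sites and which carry no Cre. The 3 Nsd2 Vil-KO libraries came from mice with the same floxed gene plus Cre under the Villin promoter, which is active in the epithelium of the whole intestine. No library came from mice without DSS, so the comparison is of genotypes within DSS treatment, and the sources used here do not state the day of harvest for RNA-seq. The labels do not say that each library is 1 mouse, so p-values measure the spread between these libraries, which may be technical.

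Phase II enzymes attach a polar group to a reactive or lipophilic molecule so that it can be pumped out of the cell. GSTs transfer glutathione to electrophiles, UGTs transfer glucuronic acid from UDP-glucuronic acid and SULTs transfer sulphate from the donor PAPS. In the gut epithelium they act on dietary compounds, drugs, bile pigments, steroids, products of lipid peroxidation and bacterial metabolites, and several GST genes are textbook targets of the oxidant-responsive factor NRF2.

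The libraries held 15439123 to 20350539 counted reads, and levels are given as CPM (counts scaled to library size) after TMM scaling, with Nsd2 f/f replicates 1, 2 and 3 first and Nsd2 Vil-KO replicates 1, 2 and 3 second. Nsd2 itself was at 24.5 to 51.1 CPM in Nsd2 f/f and 10.4 to 24.1 CPM in Nsd2 Vil-KO libraries. Of the 6 libraries, 2 stood apart, 1 of each genotype: Nsd2 f/f replicate 3 and Nsd2 Vil-KO replicate 2 held 4296 and 3684 counts of Xist, the RNA of the inactive X chromosome, against 1 to 5 in the other 4. Mitochondrial genes took 19.6% of counts in Nsd2 f/f replicate 3 and 5.51% to 9.13% in the other 5. The 7 epithelial markers summed to 10390 to 16380 CPM in Nsd2 f/f and 11790 to 14640 CPM in Nsd2 Vil-KO libraries, the 7 leukocyte markers to 15.8 to 187 CPM and 16.6 to 77.9 CPM, and the 8 markers of stroma and vessels to 9.44 to 265.1 CPM and 8.14 to 75.4 CPM. None of these epithelial, leukocyte and stromal markers was at 0 in all 6 libraries. Sums of other marker sets were high in the libraries that stood apart. The 5 neutrophil markers summed to 2336 CPM in Nsd2 Vil-KO replicate 2 and 197 to 834 CPM in the other 5. Ly6g (1353 CPM), S100a8 (573 CPM) and S100a9 (404 CPM) made up most of that sum. In Nsd2 f/f replicate 1 these genes were at 237, 197 and 357 CPM, so S100a9 was nearly as high. Csf3r and Cxcr2 were at 0.665 and 5.10 CPM in Nsd2 Vil-KO replicate 2, against 30.9 and 12.5 CPM in Nsd2 f/f replicate 1. The 7 markers of differentiated colonocytes summed to 9670 CPM in Nsd2 f/f replicate 3 and 4619 to 6188 CPM in the other 5, though Krt20 and Ceacam1 were highest elsewhere. None of the neutrophil and colonocyte markers was at 0 in all 6 libraries, and their part in the members' values in these libraries was not tested.

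Of the 67 members, 47 had at least 1 count and 20 had none in any library. At least 1 count was found for all 25 GST genes, against 11 of 21 UGT and 11 of 21 SULT genes. The same held for 26360 of the 55487 genes listed. For the Ugt1a genes and Ugt2a2, which share exons with other genes, a 0 also depends on how shared reads were counted. A count of 0 allows up to 3 counts, or 0.147 to 0.194 CPM depending on the library. The genes with 0 counts included Sult1e1, which sulphates oestrogens, Ugt2a3, and Sult2a1 to Sult2a7, relatives of the liver enzymes that sulphate bile acids and steroids. The filter on low counts kept 35 members for testing, 23 GST, 5 UGT and 7 SULT genes.

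Levels per kilobase of exon were led by the GSTs. Mgst3, a membrane-bound GST, averaged 538 CPM per kb over the 6 libraries (range 309.6 to 892) and exceeded Gsto1 in each of them. Gsto1, of the omega class, followed with 181 CPM per kb (126 to 341), Gstp1 with 119 (74.8 to 219.5), Mgst1 with 100.2 (40.2 to 218) and Gstm1 with 83.5 (41.6 to 255.5). Their ranges overlapped, and Mgst1 was above Gstm1 in 3 of 6 libraries. Among the other families, Sult1a1, which sulphates phenols, averaged 73.7 CPM per kb (22.3 to 139) and was above Ugt2b34 in 4 of 6 libraries. Ugt2b34, the leading UGT, averaged 64.8 CPM per kb (49.6 to 107). At the other end of the tested genes stood Gsto2 at 0.220 CPM per kb.

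The members together took 0.220% to 0.386% of all counts, and these shares followed the 2 libraries that stood apart. Summed over the family, GST genes reached 1394, 1506 and 3357 CPM in Nsd2 f/f and 1552, 2939 and 1628 CPM in Nsd2 Vil-KO libraries. SULT genes reached 307, 379 and 870.1 CPM in Nsd2 f/f and 304, 613 and 259.8 CPM in Nsd2 Vil-KO. UGT genes reached 297, 373 and 578 CPM in Nsd2 f/f and 316, 336 and 375 CPM in Nsd2 Vil-KO. The genotypes overlapped for each family. GST and SULT sums were highest in Nsd2 f/f replicate 3 and next in Nsd2 Vil-KO replicate 2, whereas the UGT sum was highest in Nsd2 f/f replicate 3 and next in Nsd2 Vil-KO replicate 3.

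**Figure D1:**
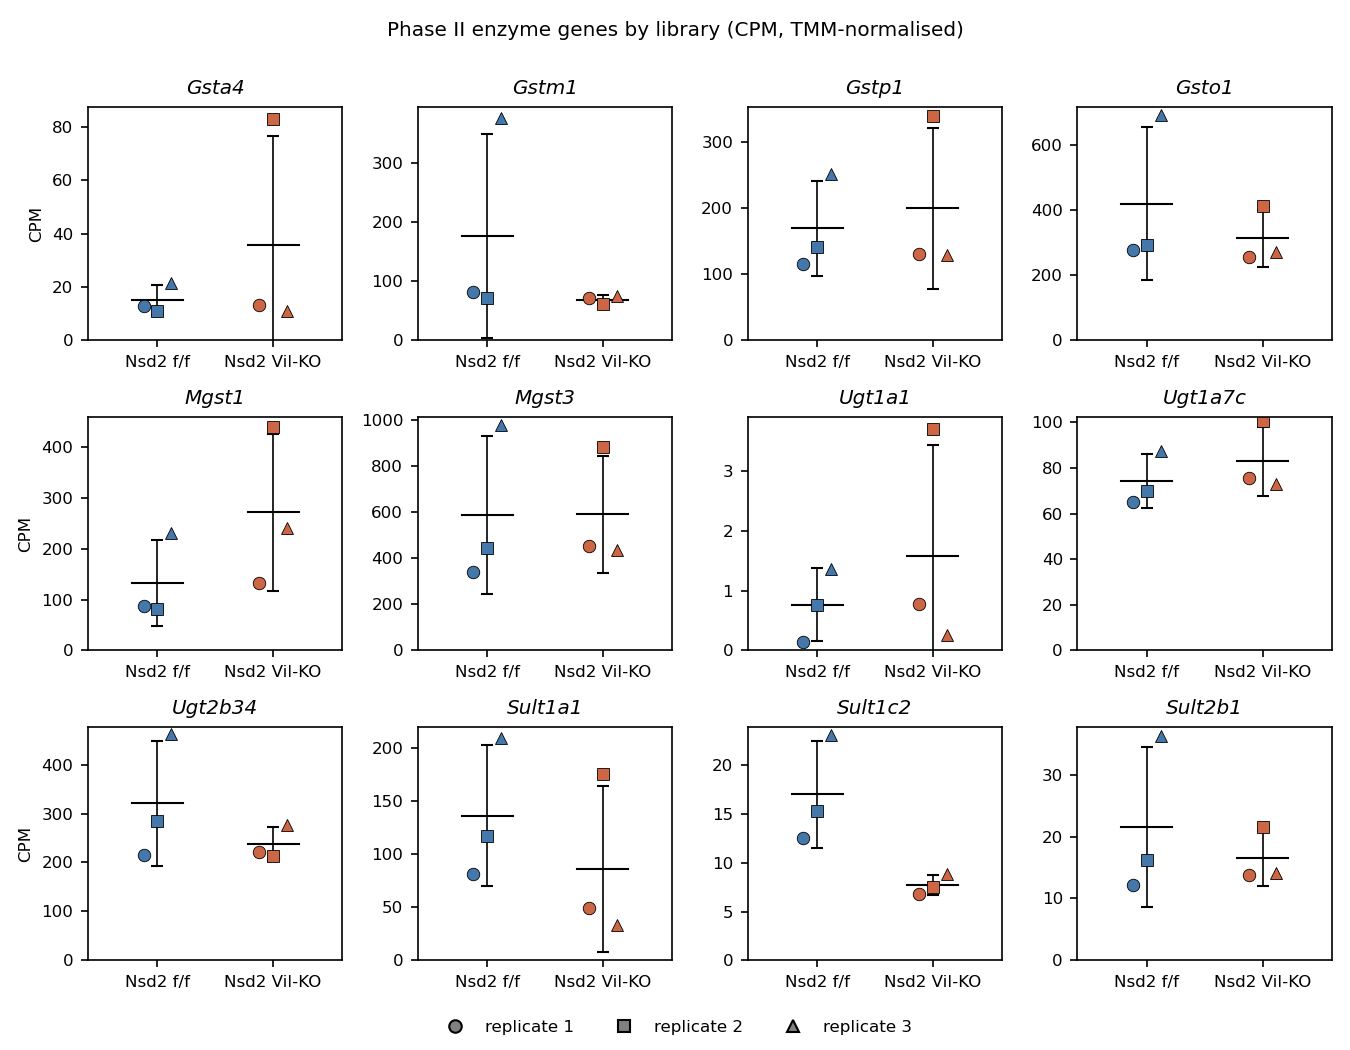
CPM (vertical axes, starting at 0) of 12 members in each library, with blue Nsd2 f/f and orange Nsd2 Vil-KO points, symbols for the replicate number, and a bar for the mean with its SD of 3 libraries. Sult1c2 is the one panel in which the genotypes do not overlap, while Gsta4 and Gstm1 each have 1 library far above the other 5.

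The comparison of Nsd2 Vil-KO with Nsd2 f/f asked whether loss of Nsd2 in the epithelium went with a change of these enzymes. By the edgeR quasi-likelihood test, 1 of the 35 tested members, Sult1c2, differed by more than 1.2-fold with p below 0.05 before adjustment, the criterion of the study's results, and it was lower in Nsd2 Vil-KO. Over all 14650 genes tested, 482 (3.29%) passed, of which 241 (1.65%) were lower. No member reached an adjusted p below 0.05, and neither did any gene (0 of 14650, 0%). The 482 genes with an unadjusted p below 0.05 were 3.29% of those tested. If no gene differed, a cut at 0.05 would be expected to pass a larger share, 0.05 of the genes. DESeq2 gave 4 genes at an adjusted p below 0.05, none of them a member. The groups of CPM values did not overlap for 1 tested member, again Sult1c2, and for 1453 of all genes (9.92%). Of the 23 GST genes 11 had a fitted log2 fold change above 0 and 12 below it, with a median of -0.06. For UGT genes it was 3 and 2, with a median of 0.16, and for SULT genes 2 and 5, with a median of -0.54. The median over all genes was 0.001.

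**Figure D2:**
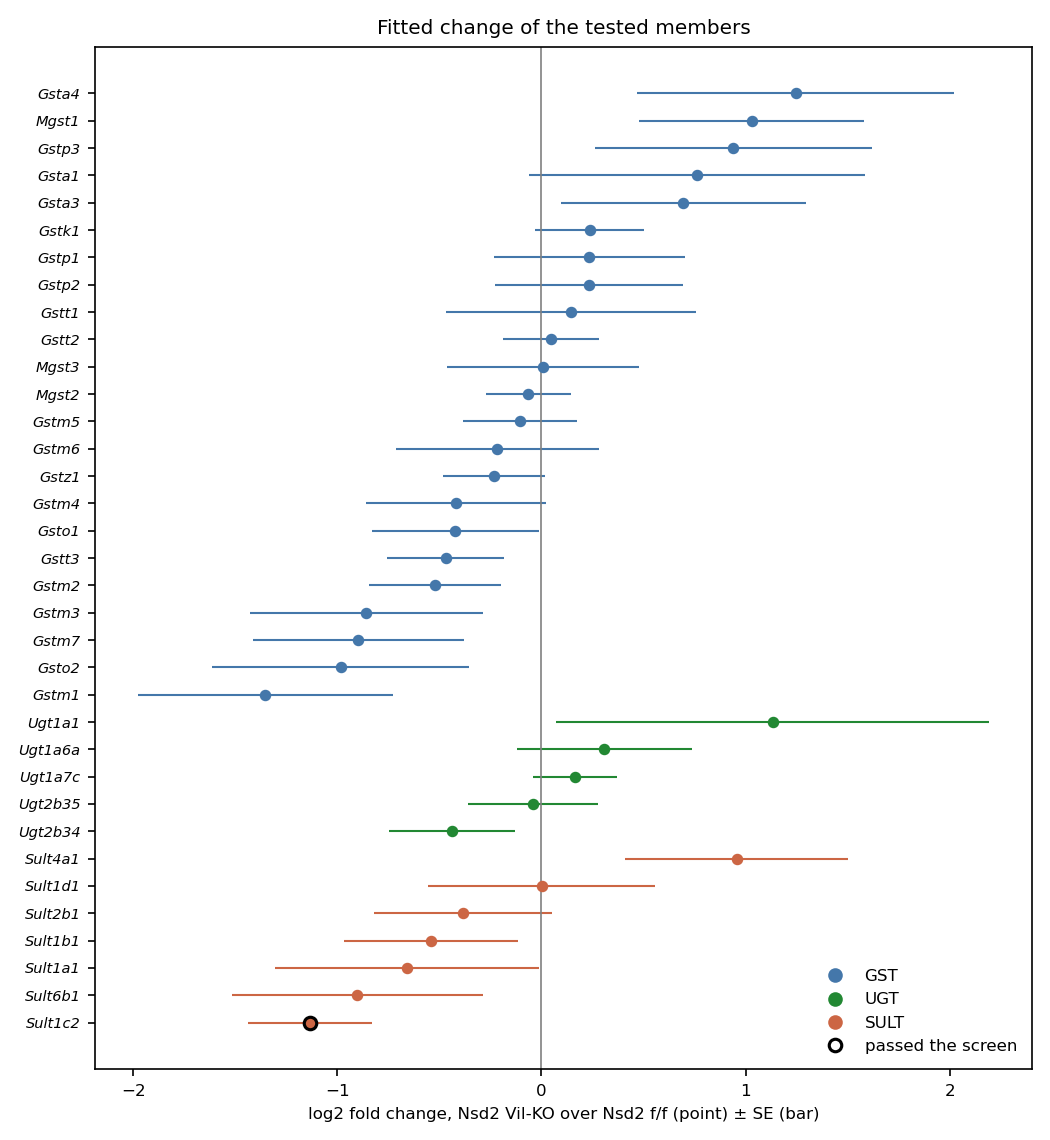
Fitted log2 fold change (point, horizontal axis, Nsd2 Vil-KO over Nsd2 f/f) with its SE (bar) for the 35 tested members, coloured by family and ordered within it. Sult1c2, ringed, passed the screen at -1.13, and the fitted values span -1.35 for Gstm1 to 1.25 for Gsta4.

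Sult1c2, a cytosolic sulphotransferase expressed in the gastrointestinal tract, measured 12.6, 15.3 and 23.1 CPM in Nsd2 f/f and 6.77, 7.53 and 8.88 CPM in Nsd2 Vil-KO libraries. Every Nsd2 Vil-KO value lay below every Nsd2 f/f value. The mean was 17.0 ± 5.44 CPM in Nsd2 f/f and 7.73 ± 1.07 CPM in Nsd2 Vil-KO (SD, n = 3 each). The fitted log2 fold change was -1.13 (SE 0.30, edgeR unadjusted p = 0.00702, adjusted p = 0.992), so that Nsd2 f/f was 2.19-fold higher. An exact two-sided permutation test of the CPM gave p = 0.1, the smallest that 3 against 3 libraries allow. The gene, ENSMUSG00000023122, lies on the minus strand of chromosome 17 (GRCm38, chr17:53829637-53846339), with exons shared with no other gene. With both libraries that hold Xist left out, the log2 fold change was -0.82 (SE 0.22, edgeR unadjusted p = 0.00724, adjusted p = 0.364). The sum of 6 goblet cell markers was 11810 to 14690 CPM in Nsd2 f/f and 7121 to 9526 CPM in Nsd2 Vil-KO libraries, without overlap. Of the 6, 1 (Clca1) passed the test, lower in Nsd2 Vil-KO, where 3.29% of all genes passed, and the other 5 did not and overlapped between genotypes. None was at 0 in all 6 libraries. In bulk samples fewer cells of a type and less RNA per cell cannot be told apart, and the part of these cells in the Sult1c2 difference was not tested.

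The other sulphotransferases did not pass. Sult1a1 (chr7:126672865-126676432, minus strand) measured 80.8, 117 and 209 CPM in Nsd2 f/f and 48.9, 176 and 33.6 CPM in Nsd2 Vil-KO libraries. Both libraries that hold Xist were the high ones of their genotype, and the genotypes overlapped through Nsd2 Vil-KO replicate 2. The log2 fold change was -0.66 (SE 0.65, edgeR adjusted p = 0.992). In the 4 libraries without Xist it was -1.25 (SE 0.28, edgeR unadjusted p = 0.00783, adjusted p = 0.365). It depended on which library was left out, at -0.20 (SE 0.70) without Nsd2 f/f replicate 3 alone. Without Nsd2 Vil-KO replicate 2 alone it was -1.72 (SE 0.45).

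Sult1b1, which sulphates phenols and thyroid hormone, measured 113, 149.7 and 337 CPM in Nsd2 f/f and 119, 181 and 113 CPM in Nsd2 Vil-KO libraries. Sult1d1 measured 85.9, 77.1 and 263 CPM and then 112, 226 and 88.3 CPM. In both genes the 2 libraries with Xist were the highest, and the genotypes overlapped. Sult2b1, which sulphates cholesterol, measured 12.1, 16.3 and 36.3 CPM in Nsd2 f/f and 13.7, 21.6 and 14.1 CPM in Nsd2 Vil-KO libraries, and its log2 fold change was -0.38 (SE 0.43). Sult4a1 and Sult6b1, at 0.565 to 2.63 CPM and 0.166 to 1.47 CPM, were close to the detection floor and had log2 fold changes of 0.96 (SE 0.55) and -0.90 (SE 0.61).

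Among the GST genes the alpha and mu classes differed in the library that carried the high value. Gsta4, which conjugates the lipid peroxidation product 4-hydroxynonenal (ENSMUSG00000032348, chr9:78182774-78209349, plus strand), measured 13.1, 11.0 and 21.4 CPM in Nsd2 f/f and 13.2, 83.0 and 11.2 CPM in Nsd2 Vil-KO libraries. The mean of 35.8 ± 40.9 CPM in Nsd2 Vil-KO (SD, n = 3) rested on replicate 2, and the other 2 libraries of that genotype lay within the Nsd2 f/f range. The log2 fold change of 1.25 (SE 0.78, edgeR adjusted p = 0.992) became -0.30 (SE 0.33) without this library and 0.03 (SE 0.20) without both libraries that hold Xist. Gsta1 measured 5.19, 6.84 and 8.47 CPM in Nsd2 f/f and 3.46, 27.8 and 3.52 CPM in Nsd2 Vil-KO libraries. Gsta3 measured 19.4, 20.7 and 34.1 CPM in Nsd2 f/f and 17.4, 81.5 and 21.1 CPM in Nsd2 Vil-KO. All 3 tested alpha genes were thus highest in Nsd2 Vil-KO replicate 2. For Gsta1, 80.6% of 100-base windows of its transcripts also occur in Gsta2, Gm10639 or Gm3776, so its reads could not be assigned to it alone.

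The pi class had the same high library. Gstp1 measured 116, 142 and 252 CPM in Nsd2 f/f and 131, 339.8 and 129 CPM in Nsd2 Vil-KO libraries, and its log2 fold change was 0.24 (SE 0.47, edgeR adjusted p = 0.996). Gstp2 measured 15.3, 16.8 and 38.6 CPM and then 19.7, 42.6 and 20.6 CPM. Gstp3 measured 17.1, 15.8 and 21.8 CPM and then 14.1, 77.3 and 13.5 CPM. Gstp1 (chr19:4035407-4037985) and Gstp2 (chr19:4040285-4046023) are neighbours on the minus strand with coding sequences that differ at 12 of 630 bases (98.1% identical), against 71.7% identity with Gstp3. The stretch of 30 bases in which Gstp1 and Gstp2 differ most, coding bases 6 to 35 in GENCODE vM21 transcripts, is shown because few bases separate the reads of these genes, with capitals at the bases that differ from the Gstp1 sequence (in Gstp1, from Gstp2):
Gstp1: AccAtacaccattgtctacttcccaGTtcG
Gstp2: GccGtacaccattgtctacttcccaAGtcC
Gstp3: accTtacaccatCgtctaTttcccTTCCcg
Counts of Gstp1 and Gstp2 are therefore uncertain as a split between the genes, and 25.1% and 46.9% of their 100-base windows were shared with each other or with the pseudogene Gstp-ps.

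The mu class was highest in the other library. Gstm1 measured 82.8, 71.4 and 376 CPM in Nsd2 f/f and 71.2, 61.2 and 75.1 CPM in Nsd2 Vil-KO libraries. Nsd2 f/f replicate 3 was the one high value, and the other 5 libraries lay between 61.2 and 82.8 CPM. The log2 fold change was -1.35 (SE 0.63, edgeR unadjusted p = 0.0668, adjusted p = 0.992), and without that library it was -0.15 (SE 0.18). The 7 tested mu genes, Gstm1 to Gstm7, were each highest in Nsd2 f/f replicate 3, with fitted log2 fold changes of -1.35 to -0.11. Of the other classes, Gsto1 measured 276, 293 and 689.7 CPM in Nsd2 f/f and 255, 413 and 270.04 CPM in Nsd2 Vil-KO libraries, with a log2 fold change of -0.42 (SE 0.41) that was 0.14 without Nsd2 f/f replicate 3. Gstk1, Gstz1 and Gstt2, leading genes of the kappa, zeta and theta classes, had log2 fold changes of 0.24 (SE 0.27), -0.23 (SE 0.25) and 0.05 (SE 0.23).

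The membrane-bound GSTs are a separate protein family that detoxifies lipid hydroperoxides. Mgst1 measured 87.3, 81.0 and 229.7 CPM in Nsd2 f/f and 133, 439 and 240.4 CPM in Nsd2 Vil-KO libraries. Nsd2 f/f replicate 3 exceeded Nsd2 Vil-KO replicate 1, so the genotypes overlapped. The log2 fold change was 1.03 (SE 0.55, edgeR unadjusted p = 0.103, adjusted p = 0.992), and without both libraries that hold Xist it was 1.16 (SE 0.30, edgeR unadjusted p = 0.0169, adjusted p = 0.381). Mgst3 measured 339.6, 446 and 978 CPM and then 452, 886 and 436 CPM, with a log2 fold change of 0.01 (SE 0.47). Mgst2 ranged from 112 to 161 CPM over the 6 libraries, with a log2 fold change of -0.06 (SE 0.21).

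None of the 5 tested UGT genes passed. Ugt2b34 (ENSMUSG00000029260, chr5:86889767-86906937, minus strand) measured 215, 285 and 463 CPM in Nsd2 f/f and 222, 214 and 277 CPM in Nsd2 Vil-KO libraries. The genotypes overlapped, and the log2 fold change was -0.44 (SE 0.31, edgeR unadjusted p = 0.200, adjusted p = 0.992). Ugt1a7c measured 65.0, 69.9 and 87.5 CPM and then 75.7, 100.5 and 73.0 CPM, with a log2 fold change of 0.16 (SE 0.20). Ugt1a6a ranged from 1.68 to 4.28 CPM, with a log2 fold change of 0.31 (SE 0.43). Ugt1a1, the enzyme that conjugates bilirubin, measured 0.148, 0.767 and 1.37 CPM and then 0.779, 3.71 and 0.255 CPM, with a log2 fold change of 1.13 (SE 1.06) that was -0.42 without Nsd2 Vil-KO replicate 2. The Ugt1a genes share their 3' exons, 50.3% to 60.6% of exon length on the same strand, and the split of reads between them depends on the counting program, which the sources used here do not name.

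The 2 libraries that hold Xist were the highest for most members. Nsd2 f/f replicate 3 was the highest of the 6 libraries for 19 of 35 tested members (54.3%) against 23.7% of all genes tested, and Nsd2 Vil-KO replicate 2 for 11 (31.4%) against 28.7%. Relative to the mean of the other 4 libraries, 15 members (42.9%) were above 2-fold in Nsd2 f/f replicate 3 and 12 (34.3%) in Nsd2 Vil-KO replicate 2, against 7.30% and 10.2% of all genes. Of these, 6 members were above 2-fold in both. The ratios in Nsd2 Vil-KO replicate 2 reached 7.62 for Ugt1a1, a gene of few counts, 6.86 for Gsta4 and 5.84 for Gsta1, and in Nsd2 f/f replicate 3 they reached 5.01 for Gstm1. Of the 35 members, 21 changed the sign of their log2 fold change in some fit, 11 kept it in all 16 fits, and 3 (Gsto2, Sult4a1 and Sult6b1) kept it in the 14 or 15 fits that tested them. Among the 11 were Sult1c2 (-1.31 to -0.82), Sult1a1 (-1.72 to -0.20) and Mgst1 (0.50 to 1.69).

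**Figure D3:**
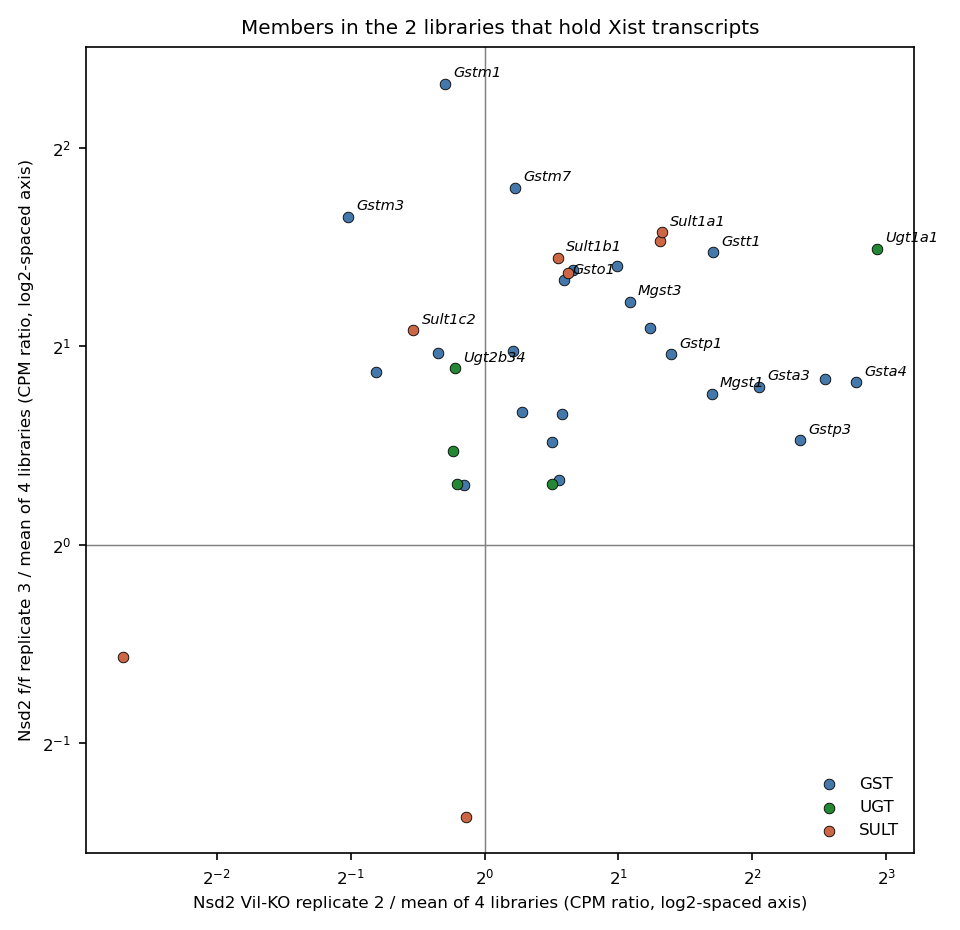
CPM in Nsd2 Vil-KO replicate 2 (horizontal) and in Nsd2 f/f replicate 3 (vertical), each divided by the mean of the 4 libraries without Xist, on log2-spaced axes, for the 35 tested members with grey lines at a ratio of 1. Ugt1a1 (7.62) lies furthest to the right, followed by Gsta4 (6.86) and Gsta1 (5.84, not labelled), and Gstm1 (5.01) lies at the top.

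With the 4 libraries that lack Xist, 5 of the 35 tested members passed the screen: Gstk1 and Mgst1 higher and Gsta1, Sult1a1 and Sult1c2 lower in Nsd2 Vil-KO. Over all genes in that fit, 11.0% passed. With Xist entered as a covariate for all 6 libraries, 4 members passed, Mgst1 higher and Gstt3, Sult1a1 and Sult1c2 lower, where 7.82% of all genes passed. In these 2 fits the members' shares, 14.3% and 11.4%, were 5 and 4 genes, and no member had an adjusted p below 0.05. Gstk1, Gsta1 and Gstt3 each passed in only 1 of the 2 fits, whereas Mgst1, Sult1a1 and Sult1c2 passed in both.

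**Figure D4:**
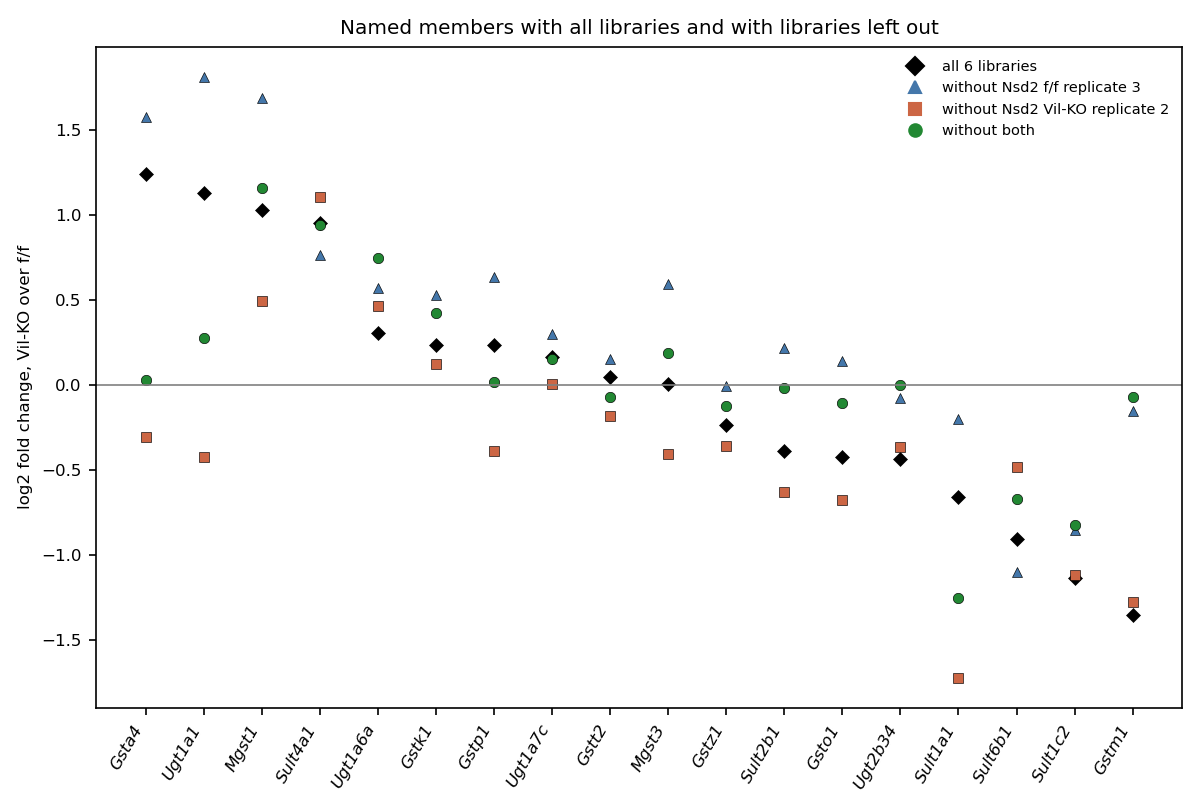
Fitted log2 fold change (vertical axis, Nsd2 Vil-KO over Nsd2 f/f) of 18 members with all 6 libraries (diamonds) and without Nsd2 f/f replicate 3 (triangles), Nsd2 Vil-KO replicate 2 (squares) or both (circles). Gsta4 and Ugt1a1 cross 0 without Nsd2 Vil-KO replicate 2, and Gstm1 moves from -1.35 to -0.15 without Nsd2 f/f replicate 3.

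Genes that supply the conjugating donors and export the conjugates were set beside the enzymes. For UDP-glucuronic acid, 0 of 5 tested genes passed, and Ugdh, the dehydrogenase that makes it, measured 68.1, 94.4 and 586 CPM in Nsd2 f/f and 102, 80.04 and 83.5 CPM in Nsd2 Vil-KO libraries, high in Nsd2 f/f replicate 3 alone. For the sulphate donor, 0 of 7 passed, and Papss2, a PAPS synthase, measured 182, 199 and 382 CPM and then 233, 325.5 and 202 CPM. For glutathione supply 1 of 12 passed, Chac1, an enzyme that degrades glutathione, at a log2 fold change of 1.24 (SE 0.50). Gclc, the catalytic subunit of the enzyme that limits glutathione synthesis, measured 58.1, 58.0 and 63.6 CPM and then 60.5, 275 and 65.7 CPM, so it was high in the same library as Gsta4.

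Among 7 tested exporters, 2 passed in the higher direction, the conjugate pumps Abcc1 at 0.43 (SE 0.15) and Abcc4 at 0.77 (SE 0.27). Of 6 deconjugating genes 1 passed, the arylsulphatase Arsb at -0.70 (SE 0.18). Of 4 tested methyl- and acetyltransferases 1 passed, As3mt, the arsenite methyltransferase, at -0.90 (SE 0.35). Of 10 tested relatives of the members, which include the prostaglandin synthase genes Hpgds and Ptges, 0 passed. None of these 5 had an adjusted p below 0.05, and they were 9.80% of the 51 list genes tested, where 3.29% of all genes passed.

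Short promoter sequences were read from RefSeq (GRCm38.p6 promoter windows of 300 bases, 250 before and 50 after the start), which were found for 59 of 67 members and 32 of 35 tested members. Motifs were sought on both strands as letters only, and a match is no evidence of binding. The core of the antioxidant response element, TGACNNNGC, was in 3 of the 32 tested members (9.38%), Gsta3, Gstm5 and Mgst1, against 12.5% of all 27025 promoters. The AP-1 site TGANTCA, whose letters can overlap that core, was in 6 (18.8%) against 7.93% of all, and the HNF1 motif GTTAAT was in 5 (15.6%) against 7.20%. The xenobiotic response core TNGCGTG was in 1 (3.12%) against 5.12%. The antioxidant core windows of Gsta3 and Mgst1 are shown because these 2 genes were high in Nsd2 Vil-KO replicate 2, and the AP-1 windows of Gstp1 and Gstp2 because they are the same in all 27 bases, with the motif in capitals:
Gsta3, chr1:21240454-21240482, plus strand: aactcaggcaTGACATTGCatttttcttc
Mgst1, chr6:138140461-138140489, plus strand, motif on the other strand: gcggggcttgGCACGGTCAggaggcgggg
Gstp1, chr19:4037970-4037996, minus strand: tccaacgtgtTGAGTCAgcatccgggg
Gstp2, chr19:4042294-4042320, minus strand: tccaacgtgtTGAGTCAgcatccgggg
The motifs begin 121, 56, 74 and 89 bases before the RefSeq start, respectively. The windows of Gsta1 and Gstp3, which were high in the same library, held none of the 4 motifs.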

How the data were processed

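RNA-seq libraries of colon IECs from DSS-treated mice, 3 Nsd2 f/f and 3 Nsd2 Vil-KO, were assigned to genotype and replicate number by the labels. The titles call the controls WT, while their genotype label is NSD2-FF, the floxed genotype. The deposited table holds raw counts, whole numbers for each Ensembl gene, neither normalised nor filtered by the authors. According to the methods, reads of directional polyA libraries were trimmed and aligned to GRCm38 with HISAT2, whereas the labels name another library kit. The counting program, annotation and use of strand are not given in the sources used here. All 6 columns were used.

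The members and lists were chosen with earlier results of these data known. Gene positions, exon lengths and shared exons came from GENCODE vM21 (99.5% of listed genes found). Genotypes were compared with edgeR 4.0.16 under R 4.3.3 (TMM, filterByExpr, robust quasi-likelihood test in its version 4 form, Benjamini-Hochberg adjustment over the 14650 genes tested). A gene passed where it differed by more than 1.2-fold with p below 0.05 before adjustment. Levels per kb divide CPM by the exon length of the gene. The floor given for a count of 0 covers counting error only. SDs are taken over libraries, and SEs come from the fit, so both include the spread between libraries. The test was also run on simulated counts with known changes, and the share of these changes that it found is not reported here.

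The text names the 4 genes Gsta4, Gstp1, Sult1a1 and Ugt2b34, each member that passed or whose genotypes did not overlap, the member with the highest level per kb of each subfamily tested, and the 3 members with the largest log2 fold change of each family. The other members named (Gsta1, Gsta3, Gstp2, Gstp3, Gstm5, Gstt3, Gsto2, Mgst2, Sult1b1, Sult1d1 and members at 0) were chosen after their values were seen. Alternatives covered normalisation, the filter, DESeq2 1.42.0, limma 3.58.1 (voom with quality weights), a replicate block, Xist, and each library left out in turn. The earlier (legacy) quasi-likelihood fit was run first on these data. The version 4 form then replaced it as the reported fit, after both had been seen, and the legacy fit was kept as an added alternative.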

Additional observations from a re-analysis of the deposited data

How the results depend on the processing

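Of the 35 tested members, 1 passed in the reported fit, and 1 also with size factors of the DESeq2 type, without a filter, with at least 10 counts in each library, in the replicate block and in the legacy quasi-likelihood fit. The number was 2 by DESeq2, 3 by limma-voom, 4 with Xist as a term, 5 in the 4 libraries without Xist and 0 at an adjusted p below 0.05. With each library left out it ranged from 1 to 3. Sult1c2 passed in every fit at the unadjusted criterion. Over all genes the 482 that passed became 434 in the legacy fit, 861 without a filter, 1440 by limma-voom, 303 with the replicate block, 1145 with Xist as a term and 1646 in the 4 libraries without Xist, and 323 to 769 with a library left out. With a library left out the median log2 fold change of GST genes ranged from -0.40 to 0.17, that of UGT genes from 0.01 to 0.30 and that of SULT genes from -0.82 to 0.0696, the last value without Nsd2 f/f replicate 3.

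Of the 18 members named by rule, 8 changed sign in some fit. In the 4 libraries without Xist, Gstt2 was -0.0661 and Ugt2b34 0.0031, and by limma-voom Gstp1 was -0.0125 and Gstt2 -0.10. With a library left out the log2 fold changes ranged from -0.30 to 1.67 for Gsta4, -0.39 to 0.64 for Gstp1, -0.67 to 0.14 for Gsto1, -0.18 to 0.22 for Gstt2, -0.40 to 0.59 for Mgst3, -0.67 to 0.22 for Sult2b1 and -0.42 to 1.81 for Ugt1a1. The cause was not tested. Deviations of same-numbered libraries from the mean of their genotype correlated at 0.322, -0.35 and -0.108 for numbers 1, 2 and 3. With means of 3 libraries, these values cannot decide whether the numbers pair the libraries. The replicate block left 1 member past the criterion. Ugt1a1, Sult4a1, Sult6b1 and Gsto2 were at or below 3.71 CPM in each library, where few counts limit the precision.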
